A study of Mus musculus with 14 samples.

Results

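The microRNA miR-126a was measured through both arms of its hairpin, mmu-miR-126a-3p and mmu-miR-126a-5p, which are 2 of the 1250 lines of mature miRNAs in the counts table. The lines were taken by their names. Small RNA was sequenced from mouse macrophages with bone marrow as their source (tissue given as excised bone), either as exosomes purified from culture supernatant or as cell lysates. Control cells, labelled wild type, gave 4 exosome and 3 lysate libraries, and cells stimulated with IL4, a cytokine that drives an alternative, tissue-repairing macrophage state, gave 4 exosome and 3 lysate libraries. The labels name no other allele, agent, strain or age. The titles carry dates: each exosome date (29 December and then 25 January, 16 March and 5 April) held 1 control and 1 IL4 library, as did each lysate date (23 January, 14 March and 21 March). Exosome and lysate libraries never carried the same date, so date and compartment cannot be told apart. What was done on a date is not in the labels, nor is whether replicates are different animals or cultures. The p-values below therefore reflect library-to-library spread that could be technical.

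A miRNA is cut from a hairpin precursor, and either arm of the hairpin can be loaded into an Argonaute protein and guide it to target messages, mainly through the seed, the bases near its 5′ end. The hairpin of miR-126a lies within Egfl7, a gene for a secreted protein of blood vessels. The miRNA is best known from endothelial cells, where miR-126a-3p sustains growth factor signalling by repressing Spred1 and Pik3r2 and limits the adhesion molecule Vcam1, and where miR-126a-5p represses Dlk1. It is also known from blood stem and progenitor cells, megakaryocytes and platelets, so the name endothelial describes its best-known source and not these samples. Vesicles that carry miR-126 between cells have been described in blood vessels.

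The sequences that define the lines were taken from RefSeq (GRCm38.p6), which is the assembly known as mm10. In the hairpin, the capitals mark the 3p arm, bases 46 to 67. In the mature miRNAs, the capitals mark the seed, bases 2 to 8. The antisense lines are shown because they are read from the other strand of the same hairpin.
Mir126a hairpin: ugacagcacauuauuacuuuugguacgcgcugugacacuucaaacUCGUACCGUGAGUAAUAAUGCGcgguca
miR-126a-3p: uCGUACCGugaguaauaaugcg
miR-126b-3p: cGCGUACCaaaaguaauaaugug
miR-126b-5p: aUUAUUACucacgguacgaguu
The sequence table held the mature sequence of 1 of the 2 arms, and miR-126a-5p is named only. No other mature miRNA among the 1738 in the table shared the seed CGUACCG.

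The hairpin is encoded on chromosome 2, 26591357 to 26591429, plus strand, in GRCm38. In GENCODE M21 Egfl7 spans 26580014 to 26593120 on the same strand. The hairpin lay in an intron of 8 of the gene's 19 annotated transcripts, among them intron 7 of a coding transcript with 10 exons, in an exon of 1 retained-intron transcript, and outside the span of the other 10. The gene Mir126b runs over the same bases on the minus strand, 26591363 to 26591420, and its hairpin is the reverse complement of part of the miR-126a hairpin. miR-126b-5p faces 19 bases of miR-126a-3p. The other antisense line, miR-126b-3p, at 26591363 to 26591385, faces bases of the hairpin before the 3p arm, which spans 26591402 to 26591423. Whether reads were counted by strand is not given in the sources used here.

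Depth differed strongly between compartments. Totals ran from 28417 to 411671 counts in the 8 exosome libraries and from 3941480 to 6792079 in the 6 lysates. Intervals given for single libraries are exact 95% binomial intervals and cover counting error only, since PCR reads are not independent molecules. The myeloid list (9 lines, miR-21a-5p, miR-223 and miR-142a among them) summed to between 216567 and 447831 CPM (counts scaled to a common library total) in all 14 libraries, with none of its lines at 0 in any group.

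The first comparison set the miRNAs of exosomes against those of lysed macrophages of the same treatment. Both arms of miR-126a were abundant in exosomes and scarce in the lysed cells, with log2 differences of 7.98 to 8.94. In control exosomes miR-126a-3p stood at 5208, 22103, 18038 and 5714 CPM in replicates 1 to 4, and in IL4 exosomes at 3238, 11173, 12442 and 5643 CPM (replicates 1 to 4 are 25 January, 16 March, 5 April and 29 December). In control lysates it stood at 27.1, 29.4 and 23.6 CPM and in IL4 lysates at 25.8, 10.1 and 9.34 CPM (23 January, 14 March and 21 March). Every exosome library was thus far above every lysate. The line ranked between 9th and 41st of all lines in exosome libraries and between 214th and 276th in lysates.

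The 5p arm showed the same division. Its level was 1654, 5443, 5452 and 2543 CPM in control exosomes and 859, 3028, 3476 and 1316 CPM in IL4 exosomes. In lysates it was 4.69, 4.42 and 3.81 CPM in controls and 6.83, 4.82 and 4.09 CPM with IL4, from 19 to 40 counts per library. The lowest exosome library was again far above the highest lysate. Both arms together took 0.410 to 2.75% of an exosome library and 0.00134 to 0.00339% of a lysate.

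**Figure D1:**
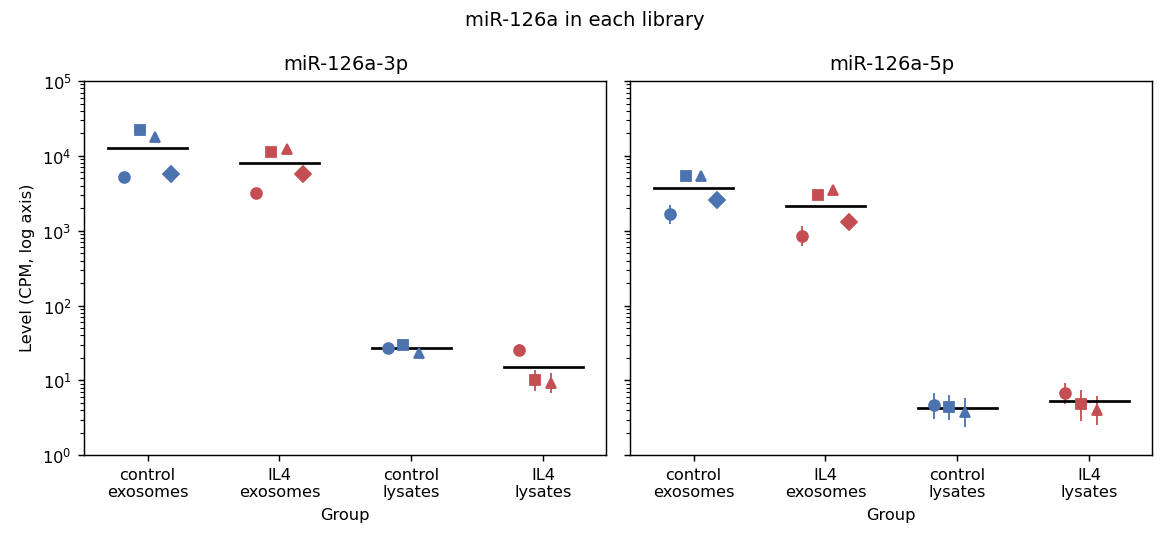
Level of miR-126a-3p (left) and miR-126a-5p (right) in CPM on a log axis for each of the 14 libraries, by group. Symbols mark replicates 1 (circle), 2 (square), 3 (triangle) and 4 (diamond), bars the exact 95% binomial interval, and black lines the group means; for miR-126a-5p, as an example, the lowest exosome library is at 859 CPM and the highest lysate at 6.83.

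As group means, the order for miR-126a-3p was control exosomes (12766 ± 8599 CPM, SD, n = 4), IL4 exosomes (8124 ± 4396, n = 4), control lysates (26.7 ± 2.95, n = 3) and IL4 lysates (15.1 ± 9.28, n = 3). For miR-126a-5p it was control exosomes (3773 ± 1967), IL4 exosomes (2169.9 ± 1276), IL4 lysates (5.25 ± 1.42) and control lysates (4.31 ± 0.452). Neighbours in these orders differed beyond their spread only across the step from exosomes to lysates. The 2 exosome groups overlapped for both arms, and the 2 lysate groups overlapped as well.

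With edgeR's quasi-likelihood test, in 1 fit of all 14 libraries, miR-126a-3p was higher in exosomes by 8.04 on the log2 scale in controls (SE 0.67, adjusted p = 5.64e-07) and by 8.43 with IL4 (SE 0.68, adjusted p = 3.88e-07). For miR-126a-5p the log2 difference was 8.94 in controls (SE 0.60, adjusted p = 4.38e-08) and 7.98 with IL4 (SE 0.58, adjusted p = 1.17e-07). These are 264-fold and 344-fold for the 3p arm and 490-fold and 252-fold for the 5p arm. As a plain ratio of mean CPM the folds were 478 and 538 for the 3p arm and 876 and 414 for the 5p arm. The fit scales libraries by TMM, which assumes that most lines do not change, and its factors were 0.973 to 1.45 in exosomes and 0.593 to 0.960 in lysates. Scaling by library size alone gave 8.90 and 9.06 for the 3p arm and 9.77 and 8.68 for the 5p arm, and moved the median of all lines in controls from -0.18 to 0.63 and with IL4 from -0.01 to 0.68.

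High levels in exosomes were common among the 338 lines tested. In controls 50.9% of lines were called, 29.3% higher in exosomes and 21.6% lower, and with IL4 49.1%, of which 30.2% higher and 18.9% lower. With library size alone the share of calls that were higher was 88.7% in controls and 91.4% with IL4, against 57.6% and 61.4%. All control exosomes lay above all control lysates for 27.2% of lines, and for 28.7% with IL4. Being higher in exosomes is thus no feature of miR-126a alone, and its size can be placed among the rest. In controls 40 lines had a larger log2 difference than miR-126a-3p and 26 a larger one than miR-126a-5p, and the median of all lines was -0.18 (quartiles -0.90 and 3.71). With IL4 22 and 33 lines had larger differences, and the median was -0.01.

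**Figure D2:**
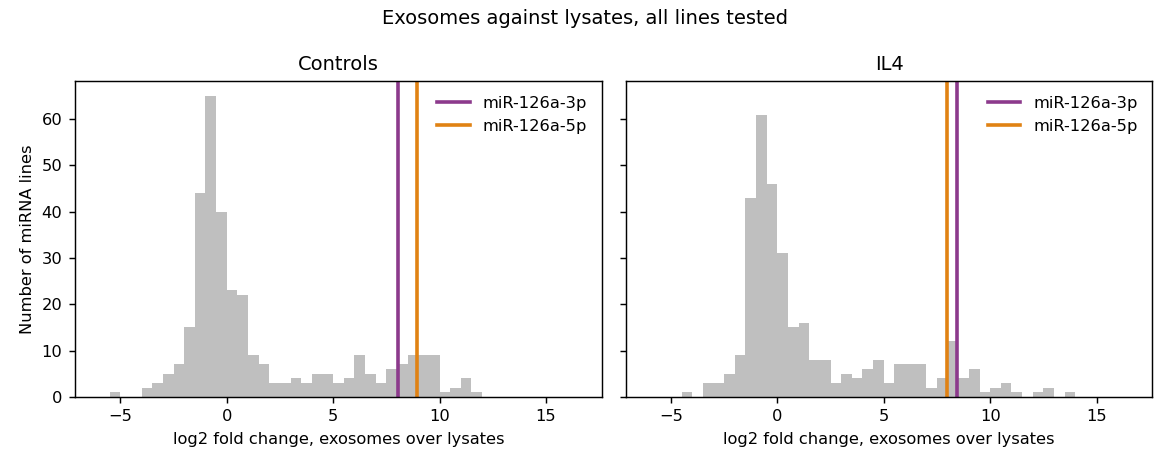
Distribution of the log2 fold change of exosomes over lysates for the 338 lines tested, in controls (left) and with IL4 (right), in bins of 0.5. Most lines lie near 0 and a smaller group lies above 3; the coloured lines mark miR-126a-3p (8.04 and 8.43) and miR-126a-5p (8.94 and 7.98) within that smaller group.

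Most of the lines with larger differences were less abundant in exosomes than miR-126a. Of the 18 tested lines at least as abundant as miR-126a-3p in control exosomes, 3 had a larger log2 difference: miR-451a, the erythroid miRNA made without Dicer, and the overlapping miR-203-3p and miR-203b-5p of epithelia. The same 3 lines were the only such ones among the 22 as abundant in IL4 exosomes. For miR-126a-5p the count was 3 of 46 in controls and 5 of 57 with IL4, where miR-10b-5p and miR-126a-3p joined them. These lines were singled out after their values were seen.

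Lists of other miRNAs show what else lay on the exosome side. Of 23 other lines linked to endothelium or angiogenesis (the antisense miR-126b lines included), 18 could be tested, of which 4 were higher in exosomes and 8 lower in controls, and likewise 4 and 8 with IL4. Over all 338 lines 29.3% were higher and 21.6% lower in controls, and 30.2% and 18.9% with IL4. Lower calls depend on the scaling. With library size alone 16 of all lines were lower in controls, against 73 with TMM, and 12 against 64 with IL4. The list was not recounted with that scaling. The median log2 difference of its 18 tested lines was -0.79 in controls and -0.73 with IL4, against -0.18 and -0.01 for all lines. The higher ones in controls included miR-10b-5p (8.72 in controls, SE 0.83), which is known to promote vessel sprouting, miR-31-5p, which represses Prox1 in lymphatic endothelium (5.92, SE 1.59), and miR-139-5p, which is enriched in endothelium (1.42, SE 0.45). The fourth was miR-130a-3p, which represses the anti-angiogenic homeobox genes Gax and Hoxa5 (4.197 in controls, SE 1.45, and 4.81 with IL4, SE 1.43). Lower ones included the hypoxia-induced miR-210-3p (-1.44), miR-17-5p of the miR-17 to miR-92a cluster (-1.40) and miR-221-3p, which restrains the receptor Kit (-1.02).

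Of 15 other miRNAs linked to stem and progenitor cells, 13 were tested, with 3 higher and 3 lower in control exosomes and 6 and 3 with IL4. Over all 338 lines 29.3% were higher and 21.6% lower in controls, and 30.2% and 18.9% with IL4. The list's median log2 difference was -0.07 in controls and 0.74 with IL4, against -0.18 and -0.01 for all lines. Of 7 other platelet-abundant lines, all tested, 1 was higher and 2 lower in each treatment, with medians of -0.45 and -0.22. The higher one was miR-150-5p (5.40 in controls, SE 0.59), which is also a lymphocyte marker, and the abundant platelet miRNA miR-223-3p was lower in control exosomes (-0.89, SE 0.19).

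Some markers of other cell types were also higher in exosomes, and their part in the result was not tested. The shares over all 338 lines were 29.3% higher and 21.6% lower in controls, and 30.2% and 18.9% with IL4. Lists of 1 to 9 tested lines can be set against these shares only loosely. All 4 erythroid lines were higher in exosomes in both treatments, and their sum was 21786 to 55319 CPM in exosome libraries against 117 to 211 in lysates. Muscle markers summed to between 287 and 3363 CPM in exosomes and between 1.56 and 12.7 in lysates, with 3 of 3 tested lines higher in controls and 2 with IL4. Epithelial markers ranged from 360 to 105033 CPM in exosomes and from 161 to 267 in lysates, with 2 of 5 tested lines higher and 0 lower in each treatment. The median log2 difference of the 5 was only 0.16 in controls and 0.38 with IL4. Liver and gut markers ranged from 1340 to 12982 CPM in exosomes and from 153 to 549 in lysates, with 2 of 3 tested lines higher in controls and 1 with IL4. Of these miR-122-5p, the main miRNA of liver, was higher by 4.85 in controls (SE 1.45). Stromal markers differed less, at 3780 to 10185 CPM against 2676 to 4806, with 3 of 6 tested lines higher and 2 lower in controls and 4 and 0 with IL4. Lymphocyte markers summed to between 639 and 1865 CPM in exosomes and between 22.8 and 39.4 in lysates, with the 1 tested line higher. Of the 9 myeloid lines 0 were higher and 5 lower in control exosomes, and 1 was higher and 3 lower with IL4. Marker lines at 0 in a whole group were miR-205-5p of epithelia in both lysate groups, miR-143-5p of stroma in control exosomes and IL4 lysates, and miR-206-3p of muscle in control exosomes and control lysates. In such bulk samples fewer cells of a type and less RNA per cell cannot be told apart.

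Within exosomes the level of miR-126a differed between dates for both arms. For miR-126a-3p the date means were 5679 CPM on 29 December, 4223 on 25 January, 16638 on 16 March and 15240 on 5 April. The lowest of the 4 libraries of March and April, at 11173 CPM, was above the highest of the 4 of December and January, at 5714 CPM. For miR-126a-5p the date means were 1929, 1257, 4235 and 4464 CPM in the same order. Its lowest library of the later dates, at 3028 CPM, lay above the highest of the earlier ones, at 2543 CPM. For both arms this split of the dates was taken from the date means themselves, which favours such a gap. The share of all lines with a gap of this kind was not computed. The highest date mean was 3.94 times the lowest for the 3p arm and 3.55 times for the 5p arm.

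The date terms passed edgeR's quasi-likelihood F test for both arms, with IL4 in the model (largest log2 difference between dates 1.67, adjusted p = 0.00492 for miR-126a-3p, and 1.66, adjusted p = 0.00857 for miR-126a-5p). Of 182 lines tested 11.0% were called. In lysates the date terms gave 0.59 (adjusted p = 0.580) and 0.25 (adjusted p = 0.925), and 6.09% of 443 lines were called. The exosome call ended for both arms without control replicate 2 (adjusted p = 0.0634 and 0.0974), control replicate 3 (0.0590 and 0.0609), IL4 replicate 2 (0.0514 and 0.0980) or IL4 replicate 3 (0.0550 for each), while the difference remained between 1.39 and 1.85.

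Depth and marker levels by date stand beside this result. The libraries of 5 April held 199025 and 411671 counts (control and IL4), those of 16 March 54381 and 74646, those of 25 January 28417 and 50032 and those of 29 December 36576 and 76729. Of the 10 lists, 6 had higher mean sums on 16 March and 5 April than on either other date. Stromal markers averaged 8012 and 8302 CPM on 16 March and 5 April, against 5291 on 25 January and 4788 on 29 December. In the same order of dates, myeloid markers averaged 284903 and 306027 CPM against 220168 and 220324, and platelet-abundant lines 46673 and 48898 against 36549.9 and 41486. The other endothelial and angiogenesis-linked lines averaged 127109 and 131483 CPM against 118393 and 103265. Liver and gut markers averaged 10631 and 7629 CPM against 5495 and 1608, and lymphocyte markers 1396 and 1551 against 1312 and 661. Erythroid markers did not share that order, at 32262 and 33394 CPM against 38553 and 26278. Epithelial markers were highest on 25 January, at 76956 CPM, and muscle markers (1825 CPM) and stem and progenitor lines (58151 CPM) on 29 December. The part of depth and of these lists in the date difference was not tested.

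**Figure D3:**
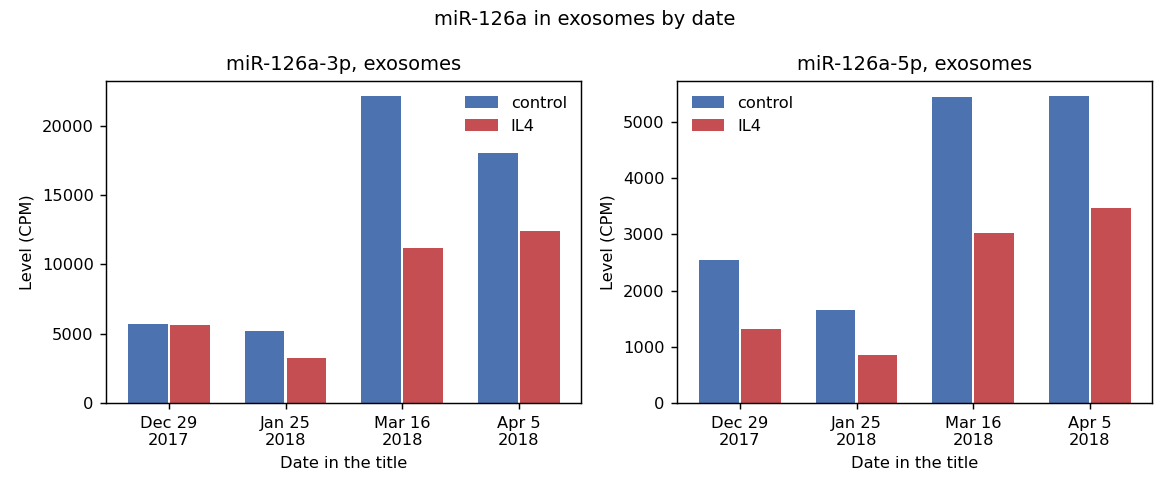
Level of miR-126a-3p (left) and miR-126a-5p (right) in CPM in the control and IL4 exosome library of each date, 1 library per bar. The March and April libraries lie above those of December and January, and the IL4 bar is below the control bar at each date, barely so for miR-126a-3p in December.

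The second comparison asked whether IL4 changed miR-126a. In exosomes the IL4 library was lower than the control of its date at 4 of 4 dates for both arms. The control level of miR-126a-3p was 1.61, 1.98, 1.45 and 1.01 times the IL4 level in replicates 1 to 4. For miR-126a-5p the control was 1.92, 1.80, 1.57 and 1.93 times the IL4 level. Such an order was common: 28.6% of the 182 lines tested were lower with IL4 at every date. As groups the libraries overlapped for both arms, and 6.04% of lines did not overlap. The exact permutation test within dates gave p = 0.125 for each arm, the smallest that 4 pairs allow (two-sided). Neither arm passed edgeR's test over all lines (log2 fold change -0.47, SE 0.50, adjusted p = 0.862 for miR-126a-3p and -0.64, SE 0.46, adjusted p = 0.804 for miR-126a-5p), and 0.549% of lines were called. Without control replicate 2, the highest of all libraries for miR-126a-3p, the log2 fold change of that arm was -0.00093, and that of miR-126a-5p -0.33. These fits did not pair libraries by date. With date as a block the SEs fell to 0.17 for miR-126a-3p and 0.18 for miR-126a-5p (edgeR unadjusted p = 0.0493 and 0.00433). After adjustment neither passed (edgeR adjusted p = 0.309 and 0.106).

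In lysates the arms lay on opposite sides of the control. miR-126a-3p was lower with IL4 at 3 of 3 dates: the control was 1.05 times the IL4 level on 23 January, 2.90 times on 14 March and 2.52 times on 21 March. The 5p arm was higher with IL4 at 3 of 3 dates, by 1.46, 1.09 and 1.07 times. The exact permutation test within dates gave p = 0.25 for each arm, the smallest that 3 pairs allow (two-sided). Of all lines 36.6% were lower and 14.2% higher with IL4 at every lysate date, and 24.2% had groups that did not overlap, whereas those of both arms overlapped. Neither passed the test over 443 lines (edgeR, log2 fold change -0.67, SE 0.35, adjusted p = 0.486 for the 3p arm and 0.46, SE 0.35, adjusted p = 0.760 for the 5p arm), while 7.22% of lines were called, 5.87% higher and 1.35% lower. That test did not pair libraries by date either. IL4 lysate replicate 1, of 23 January, kept miR-126a-3p at 25.8 CPM, within the control range of 23.6 to 29.4, whereas the other 2 IL4 lysates were at 10.1 and 9.34 CPM. Without that library the log2 fold change was -1.17 and passed (edgeR adjusted p = 0.0421), and without both libraries of that date it was -1.24 (edgeR adjusted p = 0.0186), where the alternatives for this value ranged in adjusted p from 0.0186 to 0.985. The 5p arm rests on 19 to 40 counts per lysate, and the counting intervals of the libraries compared overlapped, for example 3.09 to 6.83 CPM in control replicate 1 and 4.88 to 9.31 in IL4 replicate 1.

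The IL4 effects of the compartments were not shown to differ for either arm. The effect in exosomes minus that in lysates was 0.38 for miR-126a-3p (SE 0.67, edgeR unadjusted p = 0.575) and -0.96 for miR-126a-5p (SE 0.60, edgeR unadjusted p = 0.131). With edgeR 0 of 338 lines were called in this contrast, with 14 at an unadjusted p under 0.05, and DESeq2 called 0 as well. Among the other endothelial and angiogenesis-linked miRNAs 0 of 12 tested were called with IL4 in exosomes and 0 of 19 in lysates, with medians of -0.01 and 0.18. Over all lines 0.549% of 182 were called in exosomes and 7.22% of 443 in lysates, so 0 calls in so short a list say little about it.

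The arm ratio of the hairpin is read within a library, so scaling between libraries drops out. The 3p arm was the main product in all 14 libraries, with 2.11 to 6.67 counts of 3p for each count of 5p. The 5p share was 24.1, 19.8, 23.2 and 30.8% in control exosomes and 20.98, 21.3, 21.8 and 18.9% in IL4 exosomes. In lysates it was 14.8, 13.0 and 13.9% in controls and 20.9, 32.2 and 30.4% with IL4. The control lysates were the lowest of all libraries, and the exosome groups overlapped each other. Intervals were narrow where counts were high (20.8 to 22.9% in IL4 exosome replicate 3, with 1431 and 5122 counts of 5p and 3p) and wide in lysates (20.6 to 45.6% in IL4 lysate replicate 2, with 19 and 40).

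**Figure D4:**
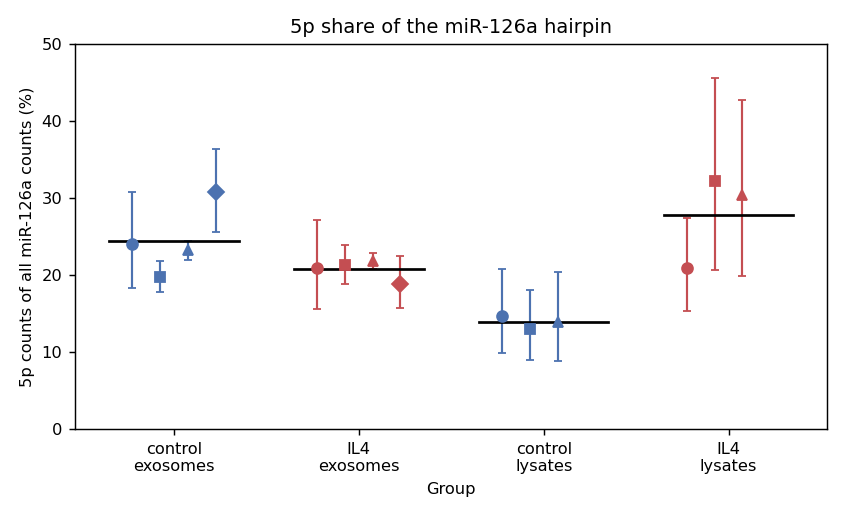
Share of 5p counts among all miR-126a counts in each library, in percent, with exact 95% binomial intervals and group means as black lines; symbols mark replicates as in the plot of levels. The 3 control lysates lie at 13.0 to 14.8% and the 3 IL4 lysates at 20.9 to 32.2%, while the 8 exosome libraries lie between 18.9 and 30.8%.

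The ratio was tested with limma as log2 of 5p over 3p counts, with 0.5 added to each, over the 46 hairpins with enough counts in both arms, and by an exact permutation test of miR-126a alone. The limma fit covered all 14 libraries, with a single variance per hairpin for both compartments. Its p-values for IL4 in a compartment therefore also depend on the libraries of the other compartment. In controls the ratio was higher in exosomes than in lysates by 0.97 (SE 0.30, limma adjusted p = 0.0520), a 1.96-fold difference, and the groups did not overlap, as held for 28.3% of hairpins. The exact permutation test gave p = 0.0286, the smallest that 4 against 3 libraries allow (two-sided). With IL4 the difference was -0.55 (SE 0.30, adjusted p = 0.327; exact permutation p = 0.114) and the groups overlapped, while those of 19.6% of hairpins did not. Over both treatments the mean difference was 0.21 (exact permutation within treatments p = 0.477). limma called 6.52% of hairpins in controls (2.17% with a higher and 4.35% with a lower 5p share in exosomes) and 2.17% with IL4. In controls the value passed without control exosome replicate 2 (1.10, adjusted p = 0.0301) or without IL4 lysate replicate 1 (0.97, adjusted p = 0.0404), and edgeR's test of arm usage on the counts gave 0.62 (adjusted p = 0.288). Over all alternatives its adjusted p ranged from 0.0301 to 0.288.

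With IL4 the ratio in lysates was higher than in the control at 3 of 3 dates, by 0.61 to 1.66 on the log2 scale, with a mean difference of 1.23 (SE 0.32), a 2.35-fold difference of the ratio. It was the largest difference among the 46 hairpins, whose median was 0.00 (quartiles -0.10 and 0.17). It still did not pass (limma adjusted p = 0.0767; exact permutation p = 0.1, the smallest that 3 against 3 allow). Neither of these tests paired libraries by date. Within dates the exact permutation test gave p = 0.25, the smallest that 3 pairs allow (two-sided). limma called 0 of 46 hairpins in this contrast, with 1 at an unadjusted p under 0.05, which was miR-126a. The groups did not overlap, as held for 8.70% of hairpins, and the direction was the same at every date for 32.6%. Without IL4 lysate replicate 1 the difference was 1.49 and passed (adjusted p = 0.0242), whereas edgeR's test of arm usage gave 0.79 (adjusted p = 0.996), and the other alternatives lay between these p-values. In exosomes the difference was -0.29 (SE 0.27, limma adjusted p = 0.742; exact permutation p = 0.171, both unpaired), lower at 3 of 4 dates. The exact permutation test within dates gave p = 0.375 in exosomes. There 4.35% of hairpins were called and 19.6% moved the same way at every date. The difference between the compartments' IL4 effects on the ratio was -1.52 (SE 0.42, limma adjusted p = 0.127, 0 of 46 hairpins called and 3 at an unadjusted p under 0.05), a comparison added after the data were seen. It passed without IL4 lysate replicate 1 (-1.79, limma adjusted p = 0.0383, with a range of 0.0383 to 0.992 over its alternatives).

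**Figure D5:**
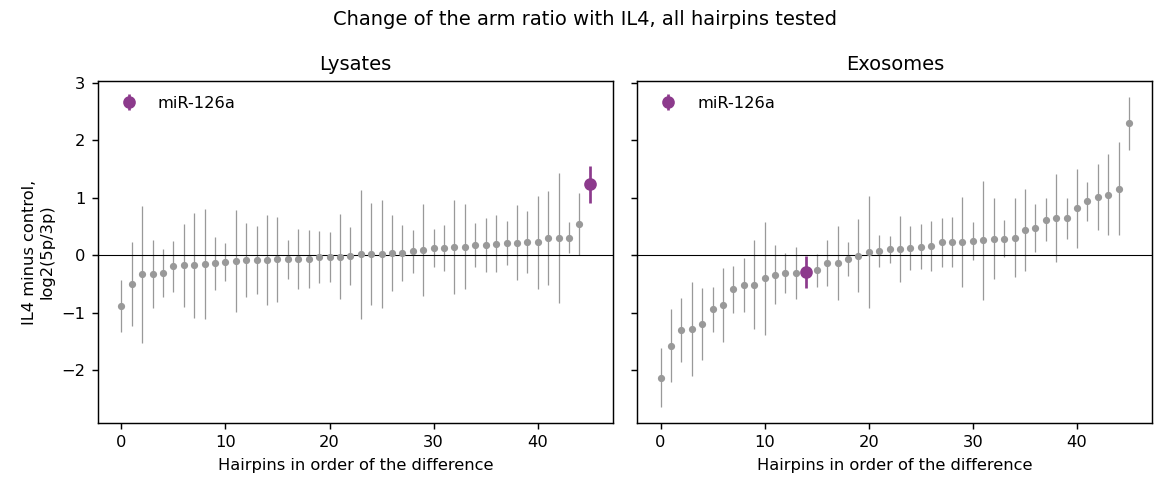
Difference of log2(5p/3p) between IL4 and control for each of the 46 hairpins tested, in order of size, in lysates (left) and exosomes (right), with standard errors from limma. miR-126a has the largest difference in lysates (1.23) and one of -0.29 in exosomes.

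The spread of the ratio between replicates differed from group to group. The SD of the log2 ratio of miR-126a was 0.36 in control and 0.11 in IL4 exosomes, where the median of the 46 hairpins was 0.94 and 0.72. In lysates it was 0.10 in controls and 0.46 with IL4, against medians of 0.25 and 0.21. The hairpins needed a mean of only 5 counts in each arm, whereas miR-126a had 43 to 1431 counts of the lesser arm in exosome libraries. These SDs include counting error, which is larger for sparse hairpins. Over the 4 exosome dates the 5p share lay between 18.9 and 30.8% in the 8 exosome libraries.

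The antisense lines had few counts in exosomes, but in lysates miR-126b-3p came near the count of miR-126a-5p in 3 libraries. miR-126b-3p had 11 counts over the control exosomes and 6 over the IL4 exosomes, against 6670 and 8352 counts of miR-126a in the same libraries. In lysates it had 28 counts in controls, of which 27 were in replicate 1, where miR-126a-5p also had 27, and 42 with IL4 (9, 15 and 18, beside 40, 19 and 21 of miR-126a-5p), against 564 and 319 of both miR-126a arms. miR-126b-5p had 3, 0, 3 and 4 counts in control exosomes, IL4 exosomes, control lysates and IL4 lysates. In single exosome libraries miR-126b-3p had at most 4 counts and miR-126b-5p at most 3. In lysates miR-126b-3p was tested and not called (edgeR log2 fold change with IL4 1.19, SE 1.19, adjusted p = 0.804). Since the strand setting is not given, any part of antisense reads in the arm ratio of lysates was not tested.

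The lines whose level followed miR-126a most closely over the 14 libraries were the same for both arms. With miR-126a-3p and miR-126a-5p, Pearson's r of log2 CPM was 0.995 and 0.995 for miR-411-5p, 0.991 and 0.992 for miR-335-3p, 0.986 and 0.989 for miR-10b-5p and 0.986 and 0.993 for miR-379-5p. Between the arms themselves it was 0.993, and over the 337 lines the median was -0.22 for the 3p arm and -0.24 for the 5p arm. Such high values were not rare: 39 of the 337 lines had r above 0.9 with the 3p arm and 40 with the 5p arm. The named lines share the contrast of compartments and depth. For example, miR-411-5p was at 824 CPM in control exosomes and 0.291 in control lysates, and miR-10b-5p at 9240.4 and 11.5 CPM. With group means removed, the arms still followed each other (r = 0.917 over 14 libraries). For miR-126a-3p the other arm was the closest line, and for miR-126a-5p it came after miR-299a-3p. The other lines were miR-30a-3p (0.857), miR-335-3p (0.852), miR-466d-3p (0.839) and miR-30a-5p (0.833) for miR-126a-3p, and miR-299a-3p (0.925), miR-335-3p (0.892), miR-30a-3p (0.890) and miR-466d-3p (0.880) for miR-126a-5p, where the median was 0.09 and 0.14. Among them miR-299a-3p averaged only 15.5 CPM in control and 28.6 CPM in IL4 exosomes, and miR-466d-3p 20.9 and 41.2 CPM. In control exosome replicate 2, for comparison, 3 counts are 55.2 CPM. The r values of miR-299a-3p and miR-466d-3p thus rest on few counts in the shallower exosome libraries. So do those of miR-335-3p (84.4 CPM in control and 73.9 in IL4 exosomes) and miR-30a-3p (111.1 and 78.4). In lysates miR-335-3p averaged only 0.110 CPM in controls and 0.114 with IL4, miR-411-5p 0.291 and 0, and miR-379-5p 0.744 and 0.767. The r values of these lines over the 14 libraries thus also rest on few counts in lysates. All these correlations describe libraries that share dates and totals. Of the lines named for their correlation, miR-10b-5p and miR-30a-5p were among those whose exosome level differed by date. Over all 182 lines tested 11.0% were called for date in exosomes. Since miR-30a-5p was picked for following miR-126a with group means removed, its date difference was favoured by that choice.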

How the data were processed

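Small RNA counts of 14 libraries were read from 1 table that the authors deposited. Its values are raw counts per mature miRNA line, as its name and whole numbers show. The submitters' processing notes name cutadapt, a read trimmer, and mm10. The aligner, counter, annotation and strand setting were not given in the sources used here. Adapter trimming and the counting step decide which reads reach a line and could not be changed here. Columns were matched to samples by title, and 0 were left unused. All 18 pairs of libraries of 1 group differed beyond sampling noise.

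Tests used edgeR 4.0.16 in R 4.3.3 (filterByExpr, TMM, glmQLFit, glmQLFTest, two-sided, Benjamini-Hochberg adjustment over all lines tested, threshold 0.05). For levels, IL4 and date were tested on each compartment's own libraries, and the compartments in 1 fit of all 14. Standard errors are the log2 fold change over the square root of F. Arm ratios used limma 3.58.1 on hairpins whose arms are named alike and averaged at least 5 counts in each compartment (46 of 405). All arm ratio contrasts, those of IL4 included, came from 1 fit of all 14 libraries. Scripts were tested on simulated data. Totals of 28417 to 411671 counts limit exosome precision, and 19 to 40 counts limit the 5p arm in lysates. Same-date libraries carry a shared date in their titles, and their deviations from group means correlated at 0.268 to 0.538 in exosomes and 0.327 to 0.704 in lysates. Each IL4 library correlated less with any control of another date, except lysate replicate 2 (0.378 against 0.327). The margin was small for exosome replicates 1 (0.289 against 0.174) and 2 (0.268 against 0.188). Tests within dates took all dates as pairs.

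Named besides the members were antisense lines, the 5 closest lines by correlation and at most 3 called members per list and direction. The members and lists were chosen with earlier results of these data known. Alternatives were other scalings, no count filter, DESeq2 1.42.0, a date block, other pseudocounts and omission of libraries. The mature sequence of miR-126a-5p was not used here.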

Additional observations from a re-analysis of the deposited data

How the results depend on the processing

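Of 406 recomputed values, 389 kept their direction and their side of the 0.05 threshold, among them every one for the level in exosomes against lysates (log2 differences 7.51 to 9.77). For the rest the cause was not tested. Leaving out 1 library at a time, the date difference in exosomes ranged from 1.51 to 1.85 for miR-126a-3p and from 1.39 to 1.62 for miR-126a-5p, with the call lost for 4 libraries in each. The IL4 effect in exosomes ranged from -0.66 to -0.00093 for miR-126a-3p and from -0.87 to -0.32 for miR-126a-5p, never past the threshold. The IL4 effect on miR-126a-3p in lysates ranged from -1.17 to -0.52, and its difference between compartments from -0.028, without control exosome replicate 1, to 0.94. The arm ratio ranged from 0.81 to 1.10 for exosomes against lysates in controls, from 1.07 to 1.49 for IL4 in lysates and from -1.79 to -1.36 for the difference of the IL4 effects. Without IL4 lysate replicate 1 the last of these passed (-1.79, limma adjusted p = 0.0383), as did the arm ratio in controls (0.97, adjusted p = 0.0404). Values that also passed were -1.24 for miR-126a-3p with IL4 without both libraries of 23 January, and for the arm ratio in controls 1.10 without both exosome libraries of 16 March (limma adjusted p = 0.0440) and 0.95 with a pseudocount of 1 (limma adjusted p = 0.0416). With date as a replicate block, the IL4 effect in exosomes was -0.40 (SE 0.17, edgeR adjusted p = 0.309) for miR-126a-3p and -0.68 (SE 0.18, adjusted p = 0.106) for miR-126a-5p. In lysates the block gave -0.74 (adjusted p = 0.230) and 0.46 (adjusted p = 0.617). The block changed no call for these arms or for the arm ratio. Exosome depth of 28417 counts at the lowest, and 19 to 40 counts of the 5p arm in lysates, limit what could be detected.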
